A study of Mus musculus with 6 samples.

Results

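Endothelial cadherins and catenins are the adherens junction genes described here, namely the cadherins Cdh5, Cdh2 and Cdh13, the catenins Ctnna1, Ctnnd1 and Jup, and the nectin system genes Nectin2, Nectin3 and Afdn. They were chosen by name with earlier results of these data known, and beta-catenin was left out. Every probe set that the platform annotation gives to one of these symbols alone was taken. All 9 genes were found, with 26 of the 45037 probe sets measured. Of these, 6 belong to Nectin3, 4 each to Cdh13 and Ctnna1, 3 to Ctnnd1, 2 each to Cdh5, Cdh2, Nectin2 and Afdn, and 1 to Jup.

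RNA came from cerebellar endothelial cells of mice aged 16 days, captured on magnetic beads with an antibody against PECAM. The Fz4-/- mice lacked Frizzled4, the receptor through which Norrin signals to brain and retinal endothelium, and the others were wild type. Both groups were of mixed gender on a C57Bl6/129 mixed background, and each had 3 preparations on 1 Affymetrix array each. The series asks how long-term loss of Frizzled4 signalling changes the endothelial transcriptome, and the labels do not say in which cells the gene was deleted, nor whether animals were pooled. All levels are log2 RMA expression, and all differences are Fz4-null minus wild type on the log2 scale.

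Adherens junctions hold neighbouring endothelial cells together. Classical cadherins bind their like on the next cell, and their cytoplasmic tails bind catenins: p120-catenin holds the cadherin at the membrane, beta-catenin or plakoglobin binds farther along the tail, and alpha-catenin links the complex to actin. Nectins form a parallel adhesion system that afadin ties to actin. Because beta-catenin also carries the canonical Wnt signal, the junction and the Frizzled4 pathway share a protein, although transcript levels say nothing of where that protein lies in the cell.

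The arrays carried the labelled genotypes and cell type. Fzd4, the targeted gene, gave 3.69 ± 0.56 (SD, n = 3) in the null group against 10.63 ± 0.37 in the wild-type group on its brightest probe set (-6.94, SE 0.34, limma adjusted p = 0.00965). Endothelial markers, 14 of 15 measured, averaged 11.35 to 11.58 on the wild-type arrays and 11.62 to 11.72 on the null arrays, where the array medians lay between 5.52 and 5.58. Genes of other cells were present too. Mural cell markers averaged 10.58 to 10.99 in the wild-type group and 9.60 to 11.00 in the null group, and fibroblast markers 10.13 to 10.48 and 7.45 to 10.54. Astrocyte markers averaged 8.13 to 8.96 and 6.76 to 8.83, microglial markers 7.36 to 7.68 and 4.85 to 7.67, and choroid plexus markers 6.10 to 8.54 and 5.04 to 5.73. Null replicate 1 was the lowest array in each of these 5 lists. The arrays numbered 3 also stood apart from the other 4, and both are treated below with the genes they touch. In bulk RNA, fewer cells of a type and less RNA per cell cannot be told apart.

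Cdh13 read higher in every null array than in any wild-type array. Cdh5 and Nectin2 read 0.44 and 0.30 higher in null with groups that overlap, and the other 6 members differed by no more than 0.14 in either direction. By limma's adjusted p at 0.05, 0 of the 9 genes passed, and 0 of their 26 probe sets. Across everything measured, 0.022% of genes and 0.0111% of probe sets passed, so a count of 0 in a list of this size says little on its own. At an unadjusted p under 0.05, 1 member (Cdh13) and 3 probe sets, all of Cdh13, fell below the line, against 4.6% of all genes and 4.46% of all probe sets. The median difference of the 9 genes was 0.074, beside 0.0077 over 18193 genes. The median size of the difference was 0.10, beside 0.17 over all genes. The members are brighter than most genes. Among the 7476 genes at least as bright as the dimmest member, the median difference was 0.049 and the median size 0.13. Of these genes, 4592 read higher and 2884 lower in null. Over all 26 probe sets of the members, dim ones included, the median size was 0.25, beside 0.17 over all probe sets. With 3 arrays a group, 0.1 is the smallest p that an exact permutation test can reach, and none was run.

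**Figure D1:**
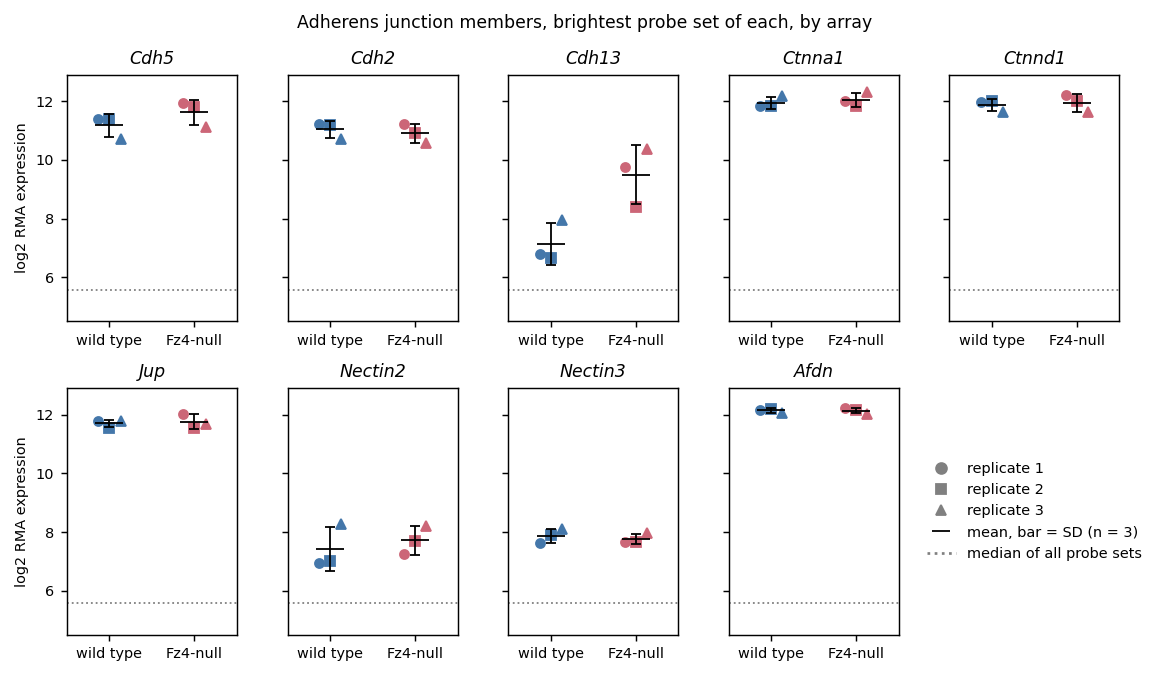
Log2 RMA expression of the brightest probe set of each member on the 6 arrays (blue, wild type; red, Fz4-null; marker shape, replicate number), with the mean and SD of each group (n = 3) and the median of all probe sets as a dotted line. The groups overlap for every member except Cdh13, whose null arrays lie between 8.39 and 10.36 and wild-type arrays between 6.65 and 7.95.

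Cdh5 encodes VE-cadherin, the classical cadherin of endothelial junctions. Its brightest probe set read 11.41, 11.40 and 10.73 on wild-type replicates 1 to 3 and 11.94, 11.79 and 11.14 on null replicates 1 to 3. The groups overlap, because null replicate 3 lies below wild-type replicates 1 and 2, and the array numbered 3 was the lowest in each genotype. The difference was 0.44 (SE 0.30, limma adjusted p = 1.00), a ratio of 1.36 with a 95% interval from 0.828 to 2.22. That interval, from the fit without the replicate number, holds no change as well as a doubling, and its lower end sets a limit on any fall. Compared by replicate number, null exceeded wild type by 0.53, 0.39 and 0.41. With the arrays numbered 3 left out the difference was 0.46 (adjusted p = 0.628), and a batch term for these arrays gave 0.44 (SE 0.13, unadjusted p = 0.0159, adjusted p = 0.485). Leaving out wild-type replicate 3 gave 0.21, leaving out null replicate 1 gave 0.28, and leaving out null replicate 3 gave 0.68. Of the 14 endothelial markers, 11 read higher and 3 lower in null, with 0 called, and their mean lay 0.29, 0.19 and 0.25 above its level in wild type on null replicates 1 to 3. Pecam1, the capture antigen, read 11.56 ± 0.18 (SD, n = 3) in null and 11.13 ± 0.19 in wild type (0.43, SE 0.19). The part of these markers in the Cdh5 value was not tested.

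A dimmer Cdh5 probe set was dominated by the replicate number. It read 8.86, 9.09 and 5.11 on wild-type replicates 1 to 3 and 8.98, 8.88 and 6.15 on null replicates 1 to 3. Both arrays numbered 3 were far below the other 4, whatever the genotype. Its difference was 0.32 with an SE of 1.23, too wide to bear on the gene.

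Cdh2 encodes N-cadherin, which endothelial cells carry next to VE-cadherin and which is known for joining endothelium to pericytes. Pericytes, astrocytes and neurons express it as well. The brightest probe set read 11.24, 11.20 and 10.72 in wild type and 11.23, 10.93 and 10.57 in null, in replicate order. The groups overlap throughout, and again the array numbered 3 is the lowest of each. The difference was -0.14 (SE 0.25, limma adjusted p = 1.00), a ratio of 0.907 with a 95% interval from 0.603 to 1.36, and the other probe set gave 0.011 (SE 0.27). Without null replicate 3 the brightest probe set turned to 0.027. Null replicate 1, where mural markers lay at -1.13 and astrocyte markers at -1.76 against their wild-type means, read 0.18 above the wild-type mean for Cdh2. Wild-type replicate 1 read 0.19 above that mean. The part of mural cells and astrocytes in the Cdh2 value was not tested.

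Cdh13 encodes T-cadherin, an atypical cadherin held on the cell surface by a lipid anchor, with neither a transmembrane segment nor a catenin-binding tail, and a receptor for adiponectin on vascular cells. Its brightest probe set read 6.80, 6.65 and 7.95 on wild-type replicates 1 to 3 and 9.75, 8.39 and 10.36 on null replicates 1 to 3. The lowest null array lay above the highest wild-type array, and the spread within each group was wide, with SDs of 0.71 and 1.01. The mean was 7.13 in wild type and 9.50 in null, a difference of 2.37 (SE 0.57) or a ratio of 5.17 (95% interval 2.03 to 13.2). The unadjusted limma p was 0.00440 and the adjusted p 0.798, so Cdh13 did not pass over the whole table. Its difference ranked 11 among the 18193 genes for size upward, while its p ranked 130. Genes whose null arrays all lie above the wild-type arrays make up 4.59% of the table, so separation of the groups alone is common.

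The further Cdh13 probe sets can be read beside the first, bearing in mind that they measure the same RNA and are no replicates. The second read 5.58, 5.75 and 6.85 in wild type and 8.55, 7.13 and 9.50 in null (2.33, SE 0.63, adjusted p = 0.885). The third read 4.77, 4.74 and 3.82 in wild type and 6.74, 5.73 and 5.49 in null (1.54, SE 0.41, adjusted p = 0.885). In all 3 the groups are separate, as they are with null above in 4.08% of all probe sets. In the third the arrays numbered 3 were the lowest of their groups, whereas in the first and second they were the highest. The fourth probe set read between 1.89 and 2.17 on all 6 arrays, below every array's lower quartile of 3.46 to 3.64, and it showed no difference (0.026, SE 0.17). Averaging the 4 probe sets, this dim one included, gave 1.57 (adjusted p = 0.310 over genes).

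By replicate number, the brightest Cdh13 probe set differed by 2.94, 1.75 and 2.42. The value was 2.35 without the arrays numbered 3, and it stayed between 1.94 (without null replicate 3) and 2.92 (without null replicate 2) as each array was left out. Mural, fibroblast and neuronal cells can also express Cdh13. On null replicates 1 to 3, Cdh13 lay 2.62, 1.26 and 3.23 above its wild-type mean. On those arrays mural markers lay at -1.13, 0.091 and 0.28 against their own wild-type mean, fibroblast markers at -2.81, 0.27 and -0.87, and neuronal markers at -0.85, 0.071 and 0.13. Of the markers, 8 of 10 mural, 8 of 8 fibroblast and 7 of 10 neuronal genes read lower in the null group. Without null replicate 1, the array with the lowest values of these lists, the Cdh13 difference was 2.25. The part of these cells in the Cdh13 value was not tested.

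**Figure D2:**
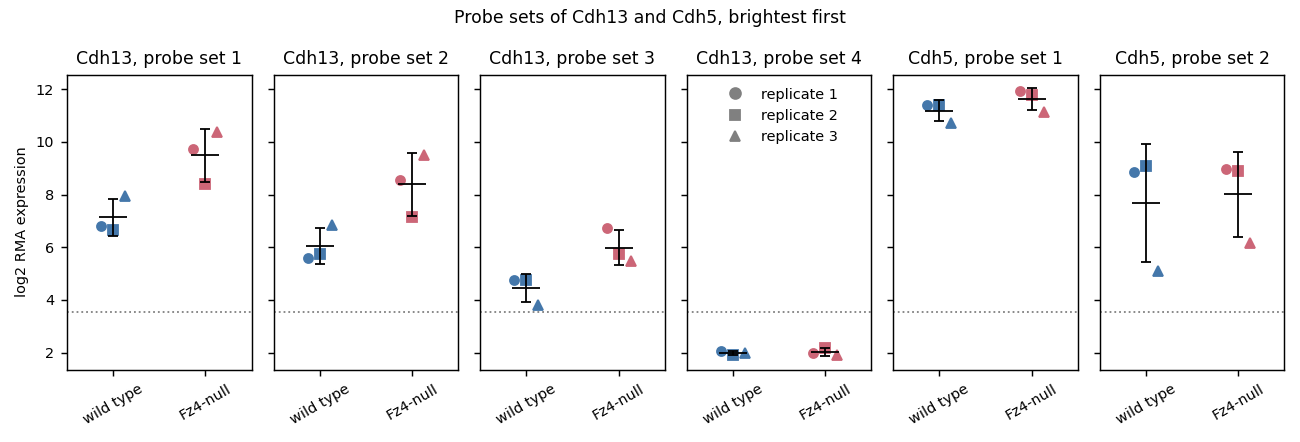
Log2 RMA expression of the 4 probe sets of Cdh13 and the 2 of Cdh5, brightest first, by array (blue, wild type; red, Fz4-null; marker shape, replicate number), with the mean and SD (n = 3) and a dotted line at the lower quartile of all probe sets. The null arrays lie above the wild-type arrays in the first 3 Cdh13 panels, the fourth lies under the quartile, and the second Cdh5 panel separates the arrays numbered 3 from the rest.

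The 3 catenin genes differed little between the genotypes. Ctnna1 encodes alpha-catenin, the link to actin, and its brightest probe set read 11.84, 11.83 and 12.17 in wild type and 11.997, 11.82 and 12.31 in null. The groups overlap, and the array numbered 3 was the highest of each. The difference was 0.10 (SE 0.21, ratio 1.07, 95% interval 0.758 to 1.51), and that of the next probe set, almost as bright, was 0.053 (SE 0.24). The 2 dim probe sets read lower in null, by -0.32 (SE 0.24) at a mean level of 6.42 and by -0.58 (SE 0.37) at 2.54, the last below the arrays' lower quartiles. The mean of all 4 therefore had the opposite sign, -0.19. The brightest one has a name ending that marks probes able to read several transcripts.

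Ctnnd1 encodes p120-catenin, which keeps cadherins from being internalised. It read 11.99, 12.004 and 11.64 in wild type and 12.23, 12.003 and 11.62 in null. Replicates 2 and 3 of the 2 genotypes were nearly equal, and only replicate 1 differed. The difference was 0.074 (SE 0.22, ratio 1.05, 95% interval 0.727 to 1.52), and the other probe sets gave 0.30 (SE 0.29) and 0.20 (SE 0.21). The brightest probe set of Ctnnd1 can also read several transcripts.

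Jup encodes plakoglobin, the close relative of beta-catenin that binds the same cadherin tail. Its only probe set, of the kind that can read several transcripts, read 11.77, 11.55 and 11.78 in wild type and 12.03, 11.55 and 11.70 in null. The groups overlap, and null replicate 1 was the highest of the 6. The difference was 0.060 (SE 0.20, ratio 1.04, 95% interval 0.752 to 1.45). Ctnnb1, beta-catenin itself, read 13.00 ± 0.10 in wild type (SD, n = 3) and 13.05 ± 0.081 in null on its brightest probe set (0.055, SE 0.16).

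Nectin2 and Nectin3 encode immunoglobulin-like adhesion receptors that pair across cell contacts. Nectin2 read 6.95, 7.01 and 8.28 in wild type and 7.24, 7.70 and 8.21 in null. The arrays numbered 3 were the highest, and replicates 1 and 2 read higher in null while replicate 3 did not. The difference was 0.30 (SE 0.42, ratio 1.23, 95% interval 0.613 to 2.48), and the dimmer probe set gave 0.58 (SE 0.34). Without wild-type replicate 3 the first was 0.74 (adjusted p = 0.638), without both arrays numbered 3 it was 0.49, and without null replicate 3 it was 0.056. Nectin2 is thus among the members whose value is least settled by these arrays.

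Nectin3 read 7.61, 7.90 and 8.09 in wild type and 7.67, 7.65 and 7.97 in null on its brightest probe set. The groups overlap, and the difference was -0.10 (SE 0.20, ratio 0.933, 95% interval 0.668 to 1.30). All 6 Nectin3 probe sets read lower in null, by -0.0049 to -0.43, with none past the threshold. For 1 of them the groups did not overlap, with null arrays at 5.98 to 6.26 and wild-type arrays at 6.29 to 6.73 (-0.29, SE 0.20), where 5.18% of all probe sets have every null array below every wild-type array. Without wild-type replicate 3 the brightest one turned to 0.013.

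Afdn encodes afadin, the scaffold that ties nectins to actin. It read 12.17, 12.20 and 12.05 in wild type and 12.21, 12.15 and 12.03 in null, the closest agreement of any member. The difference was -0.0094 (SE 0.16, ratio 0.994, 95% interval 0.759 to 1.30), and a dim probe set gave -0.21 (SE 0.19).

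**Figure D3:**
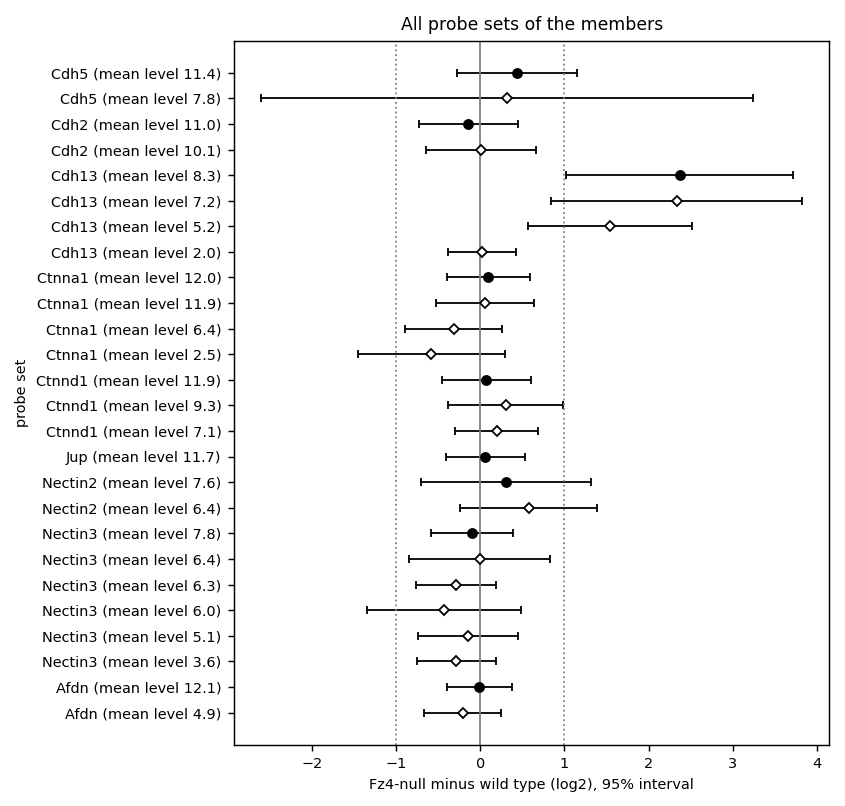
Difference between Fz4-null and wild type (log2) with its unadjusted 95% interval for all 26 probe sets, filled circles marking the brightest of each gene, open diamonds the others, and dotted lines a 2-fold change. Intervals exclude 0 for the first 3 Cdh13 probe sets and no other, and that of the dim Cdh5 probe set is the widest.

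The intervals come from the fit without the replicate number, and say how large a change that fit could have missed. With a block for each replicate number, or a batch term for the arrays numbered 3, the SE of every member was smaller. For Cdh5 it was 0.30 without the replicate number, 0.14 with the block and 0.13 with the batch term. Intervals with the block or the batch term are not given here. For 8 of the 9 genes, all but Cdh13, the 95% interval held 0, against 17356 of all 18193 genes. It lay within a 2-fold change in both directions for 6 genes (Cdh2, Ctnna1, Ctnnd1, Jup, Nectin3 and Afdn), against 67.4% of all genes. It lay within a 1.5-fold change for 3 (Jup, Nectin3 and Afdn), against 3845 of all 18193 genes. Cdh5, Cdh13 and Nectin2 reached a 2-fold rise or more, against 3666 of all genes. No interval of a member's brightest probe set reached a 2-fold fall, against those of 3313 of all genes. Among all 26 probe sets 3 intervals did, those of the dim Cdh5 probe set (to -2.60), of the dimmest of Ctnna1 (to -1.46) and of 1 of Nectin3 (to -1.34).

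The replicate number moved several members more than the genotype did. Both arrays numbered 3 lay outside the other 4 arrays for 7 of the 9 members by their brightest probe sets, against 39.8% of all genes, and for 13 of their 26 probe sets, against 36.7% of all probe sets. They lay above for Ctnna1 (0.37 above the mean of the others), Nectin2 (1.02) and Nectin3 (0.32), against 21.6% of all genes. They lay below for Cdh5 (-0.70), Cdh2 (-0.50), Ctnnd1 (-0.43) and Afdn (-0.14), against 18.1% of genes. The labels do not say what the number 3 shares. With a batch term for these arrays 0 members passed, the lowest adjusted p being 0.301 for Cdh13. Unadjusted limma p values under 0.05 were those of Cdh13 and Cdh5. In that fit 3895 of all 45037 probe sets fell under 0.05, against 2008 without the batch term.

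The 3 genes most like Cdh5 over the 6 arrays, by Pearson r among 9096 genes above the median level, were the Notch target Hes1 (r = 0.994), the kinase gene Plk2 (0.992) and Ece1, which activates endothelin (0.991). Hes1 read 10.74, 10.67 and 9.74 in wild type and 11.28, 11.06 and 10.35 in null, low on both arrays numbered 3 as Cdh5 is. For Cdh2 they were Entpd5, Rap1gds1 and Zbtb41 (r = 0.998 each), which also read low on the arrays numbered 3. With 6 arrays and so many genes searched, these values are descriptions, and all points share the contrast between the arrays numbered 3 and the rest.

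Other genes of the adherens junction were taken from 4 further lists, of which 57 of 61 genes were measured. By limma, 0 of the 57 passed and 5 had an unadjusted p under 0.05, and the median difference was 0.0073, beside 0.0077 over all genes. In 10 of the 57 the groups did not overlap, 4 with null above and 6 with null below, or 17.5% of them, where 9.54% of all genes do so, 4.59% with null above and 4.95% with null below.

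Of 17 other cadherins, 9 read higher and 8 lower in null, with 0 called by limma and 4 (23.5%) at an unadjusted p under 0.05, against 4.6% of all genes. In 6 (35.3%) the groups did not overlap, against 9.54% of all genes. The 3 with the lowest p are Cdh26, Cdh6 and Cdh1. Cdh26 read 4.88, 5.03 and 5.94 in wild type and 6.43, 6.16 and 6.41 in null (1.05, SE 0.30, adjusted p = 0.928). Cdh6 read -0.76 (SE 0.25), with -0.17 on its other probe set, and the epithelial cadherin Cdh1 read -0.69 (SE 0.25) from 3.91, near the arrays' lower quartiles. Cdh11, a cadherin of fibroblasts and mesenchyme named after its values were seen, read 9.93 ± 0.27 in wild type (SD, n = 3) and 9.27 ± 0.37 in null (-0.66, SE 0.26), and 8 of 8 fibroblast markers had lower means in the null group. On null replicates 1 to 3 the mean of those markers lay at -2.81, 0.27 and -0.87 against its wild-type level. Cdh11 read 8.87, 9.32 and 9.61 on those arrays, and 9.70 to 10.24 on the wild-type arrays. The part of fibroblasts in that value was not tested.

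Of 9 other catenins and armadillo proteins, 2 read higher and 7 lower (median -0.16), with 0 called and 0 at an unadjusted limma p under 0.05. The plakophilins Pkp3 (0.57, SE 0.25) and Pkp2 (-0.70, SE 0.33), which are desmosomal, lay below the array medians. Their other probe sets gave 0.098 for Pkp3, and -1.05, 0.13 and -0.50 for Pkp2. Arvcf, a relative of p120-catenin, read 6.39, 6.52 and 7.55 in wild type and 5.61, 6.23 and 6.48 in null (-0.71, SE 0.38). Its groups overlap by little, and its 2 dimmer probe sets also read lower (-0.95 and -0.37).

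Of 15 other nectins and actin linkers, 8 read higher and 7 lower (median 0.0073), with 0 called and 0 at an unadjusted limma p under 0.05. Ssx2ip, which binds afadin, read 9.18 ± 0.097 in wild type (SD, n = 3) and 8.83 ± 0.12 in null (-0.34, SE 0.17). Its groups did not overlap, which holds for 6.67% of this list, against 9.54% of all genes. Its other probe sets gave -0.43, -0.13 and 0.13, with groups that overlap. The actin regulator Enah read 0.23 (SE 0.19), and Nectin4, dim on all arrays, 0.37 (SE 0.26). The other probe sets of Enah gave 0.22, -0.027, 0.22, 0.28 and 0.070, and that of Nectin4 gave 0.018.

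Of 16 regulators of VE-cadherin junctions, 11 read higher and 5 lower (median 0.077), with 0 called by limma and 1 at an unadjusted p under 0.05. That was Src, a kinase that acts on VE-cadherin and its catenins, at 6.81, 7.05 and 7.37 in wild type and 6.29, 6.56 and 6.59 in null (-0.60, SE 0.21, adjusted p = 1.00), with -0.50 (SE 0.38) on its other probe set. Heg1, the receptor of the cerebral cavernous malformation proteins, read 9.51 ± 0.35 in wild type (SD, n = 3) and 9.02 ± 0.30 in null (-0.50, SE 0.26). Ccm2, from that complex, read 0.41 (SE 0.27), and its other probe sets gave -0.075 and 0.34. Ptprb, the phosphatase partner of VE-cadherin, named after its values were seen, read 12.87 ± 0.056 in wild type (SD, n = 3) and 12.93 ± 0.055 in null (0.057, SE 0.16).

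**Figure D4:**
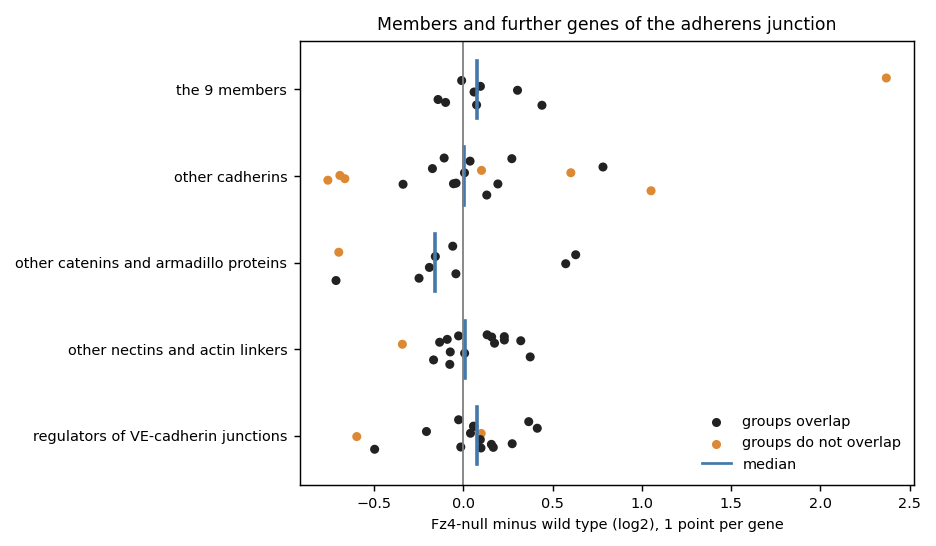
Difference between Fz4-null and wild type (log2) of each member and each gene of the 4 further lists, 1 point per gene, orange where the groups do not overlap, with each list's median as a blue line (points are spread vertically for legibility). Cdh13 is the point at 2.37, and the genes of the further lists lie between -0.76 and 1.05.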

How the data were processed

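The deposited values are on a log2 scale and were made by the authors with RMA (background correction, normalization between arrays and 1 summary per probe set), per the submitters' processing notes. For RMA, a version was not given in the sources used here. Folds of dim genes can be understated. From 45101 rows, 64 controls were left out. Names came from the platform annotation (34945 with 1 symbol, 932 with several, 9160 with none), and each gene was represented by its brightest probe set, by mean over the arrays. The comparison used limma 3.58.1 (R 4.3.3) on all 45037 probe sets, two-sided, with Benjamini-Hochberg adjustment at 0.05. On 5 simulated data sets limma recovered 73.6% of changes of log2 2 and 5.2% of log2 1. The simulated noise was independent between arrays, without the offset that the arrays numbered 3 share. Planted changes reached log2 4, so these shares need not hold for the deposited values. P-values measure the spread between preparations, whose independence the labels do not state. Depth does not apply to arrays, whose number limits the precision.

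The members and lists were chosen with earlier results of these data known. Named genes were all members, the 3 lowest p in each further list, the 3 genes most like Cdh5 and Cdh2, and Ctnnb1, Pecam1 and Cldn5 as reference points; others are marked. Cldn5 gave 12.60 ± 0.21 (SD, n = 3) in null and 12.62 ± 0.24 in wild type. Oligodendrocyte markers averaged 4.21 to 4.41 on the wild-type and 3.89 to 4.28 on the null arrays, and platelet markers 6.23 to 6.41 and 5.33 to 5.79, with 5 of 5 lower in null.

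Replicate numbers 1 to 3 come from the labels. Deviations from the group means correlated at 0.244, 0.303 and 0.574 for equal numbers, all over the minimum of 0.1, and at 0.262 and 0.124 for numbers 1 and 2 crossed. The replicate block was an alternative fit. Other alternatives were normalization, filters, variance models, array weights, probe set rules and leaving out arrays. Figures used matplotlib 3.10.9.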

Additional observations from a re-analysis of the deposited data

How the results depend on the processing

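The number of members past the threshold was 0 under every alternative run, as was that of their probe sets and of the further junction genes. Cdh13, Cdh5 and Nectin2 kept their direction in all 19 alternatives each, but not all of these could change it. The level filters, the variance models, the replicate block and the batch term, among others, returned the main differences of these genes unchanged. For Cdh5 and Nectin2, direction was put to the test by normalization, array weights and leaving out arrays. The groups of Cdh13 do not overlap, so leaving out or reweighting arrays could not reverse it, and only normalization could. Every probe set of these genes read higher in null, so the mean of the probe sets could not reverse any of them. The adjusted p of Cdh13 lay between 0.300 (array weights) and 1.00. With the replicate block the differences stayed at 2.37 for Cdh13 (SE 0.26) and 0.44 for Cdh5 (SE 0.14), and no member passed. The block called 0 of all probe sets, not even those of Fzd4. The lack of a call among the members therefore cannot say whether pairing by replicate number matters. The small differences changed sign when 1 array was left out, ranging from -0.31 to 0.027 for Cdh2, -0.038 to 0.21 for Ctnna1, -0.063 to 0.24 for Ctnnd1, -0.077 to 0.17 for Jup, -0.23 to 0.013 for Nectin3 and -0.054 to 0.039 for Afdn. The mean of the probe sets gave -0.19 for Ctnna1. Jup has no value without probe sets that can read several transcripts.

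Over all probe sets limma called 5 (2008 at an unadjusted p under 0.05). The count was 0 with the replicate block (3917 unadjusted), 0 with an unmoderated statistic (2126), 0 without both arrays numbered 3 (3580), 2 with a batch term for them and 21 with array weights. It was 1 at an adjusted p of 0.01, 8 at 0.1, and 0 to 2 as each array was left out. Some of these fits had fewer arrays or residual degrees of freedom (2 with the block, 4 without). The cause of these shifts was not tested.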
